A study of Mus musculus with 12 samples.

Results

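The 10 genes described here sense bacterial products or set the strength of the NF-kB response to them: Lbp, Cd14, Tlr4, Tlr2, Nod2, Myd88, Nfkbia, Nfkbiz, Tnfaip3 and Tnf. They were chosen by name, as rows of the deposited expression table whose gene symbol equals 1 of these names in capitals (LBP, CD14, TLR4, TLR2, NOD2, MYD88, NFKBIA, NFKBIZ, TNFAIP3, TNF), and all 10 had a row among 18090. Expression was read with a 1-colour Illumina array from total RNA of a whole piece of proximal small intestine in 12 mice labelled P6. There were 6 mice labelled control and 6 labelled mutant, all of a C57/BL6;129Ola mixed background. The mutants were villinCre;Shp2fl, which pairs Cre recombinase driven by the epithelial villin promoter with floxed Shp2 (Ptpn11), a tyrosine phosphatase that relays growth factor signals. Muscle, stromal and immune cells in the piece are not targeted by this promoter. The labels do not say which alleles the controls carry, nor the sex or litter of any mouse. They call the samples biological replicates, so n is the number of mice.

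Lipopolysaccharide shed by Gram-negative bacteria is bound by the secreted protein Lbp and passed to Cd14, which hands it to the receptor Tlr4 and its partner Ly96. Tlr2 recognises bacterial lipoproteins, and Nod2 senses muramyl dipeptide, a fragment of peptidoglycan, inside the cell. Tlr2 and Tlr4 signal through the adaptor Myd88 to NF-kB. That factor induces its own brakes, among them Nfkbia (I-kappa-B-alpha, which holds NF-kB in the cytoplasm) and Tnfaip3 (A20, a ubiquitin-editing enzyme), as well as Nfkbiz, a nuclear partner that alters which targets are induced, and the cytokine Tnf. In the intestine these genes act in epithelial cells that face the bacteria of the lumen and in macrophages and neutrophils beneath them.

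The promoters of the receptor and feedback members are shown because such genes are known NF-kB targets. Promoter sequences came from RefSeq with build GRCm38.p6, from 250 bases before to 50 after each start, and 6 of the 10 members had an entry. Lbp, Cd14, Tlr4 and Nfkbiz had none. The NF-kB consensus, a 10-letter motif searched on both strands, was held by 8.46% of 32851 promoters in the table. That share is by promoter, whereas members were counted by gene, a match at any annotated start counting. By gene, the motif was found in 3 of the 6. Those 3 were Tlr2, Nfkbia and Tnfaip3, and their 250 bases before the start follow, 5′ to 3′, with matches in capitals.
Tlr2 (chr3:83841609-83841858, minus strand): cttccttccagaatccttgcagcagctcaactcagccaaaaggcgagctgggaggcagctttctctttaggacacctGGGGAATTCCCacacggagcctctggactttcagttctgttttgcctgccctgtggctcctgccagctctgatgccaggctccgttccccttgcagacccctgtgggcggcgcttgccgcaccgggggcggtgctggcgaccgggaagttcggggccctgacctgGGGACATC
Nfkbia (chr12:55492648-55492897, minus strand): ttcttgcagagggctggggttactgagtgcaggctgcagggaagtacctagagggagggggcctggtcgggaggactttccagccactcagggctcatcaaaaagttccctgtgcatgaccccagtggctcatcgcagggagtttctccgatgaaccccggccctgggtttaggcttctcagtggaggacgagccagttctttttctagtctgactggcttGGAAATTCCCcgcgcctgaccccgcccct
Tnfaip3 (chr10:19015411-19015660, minus strand): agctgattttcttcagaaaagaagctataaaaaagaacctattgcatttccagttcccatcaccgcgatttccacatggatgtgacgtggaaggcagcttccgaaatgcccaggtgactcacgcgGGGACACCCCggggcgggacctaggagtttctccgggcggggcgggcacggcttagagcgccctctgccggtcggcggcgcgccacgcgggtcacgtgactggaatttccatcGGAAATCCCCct
In Tlr2 the motif matched at 3 positions, of which those beginning at -173 and -172 relative to the start overlap and the last, from -8, runs across the start. Nfkbia had 1 match, from -29 on the opposite strand. Tnfaip3 had matches at -125 and -12, and its other annotated start had none. No match was found for Myd88, Nod2 and Tnf in these windows. A match describes the letters only.

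Values are deposited intensities in arbitrary units, background-subtracted and normalized before deposit, and given as mean ± SD over 6 mice. A noise limit of 27.8 was set, because deposited values reach as far as that below 0. Log2 differences are mutant minus control with their SE, from limma on values raised by an offset of 50, which shrinks the differences of dim genes. Of all rows, 1663 (9.19%) passed an adjusted p of 0.05, 852 (4.71%) higher and 811 (4.48%) lower in the mutants. Pearson correlations of whole arrays were 0.983 to 0.994 for pairs inside a group and 0.973 to 0.987 for pairs across groups. Control 4 and mutant 1 stood apart through pancreatic acinar transcripts, whose summed intensity over 10 markers was 56541 and 26950 there, and 134.3 to 5185 for the remaining 10 mice. Next came control 5 (5185) and mutant 2 (1446), and the rest were at most 528.6. Where control 4 and mutant 1 are left out below, control 5 and mutant 2 stayed in. Some abundant genes of this tissue are not read by their rows: the enterocyte lipid-binding proteins Fabp1 and Fabp2 lay within the noise limit in every mouse. A member within that limit is therefore a row without usable signal, not a gene shown to be silent. In such bulk tissue, fewer cells of a type and less RNA per cell cannot be told apart.

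In the mutants 3 of the 10 genes rose and none fell, against 4.71% and 4.48% of all rows. The 10 were chosen with earlier results of these data known, so their count is not independent of them. Of rows with a group mean above the noise limit, 7.99% rose and 7.74% fell. The 3 were Cd14, Lbp and Tlr2. Their groups did not overlap, which held for 4.69% of all rows. The adaptor Myd88 and the NF-kB regulators Nfkbia, Nfkbiz and Tnfaip3 did not pass. Tlr4, Nod2 and Tnf had both group means within the noise limit. The median log2 difference of the 10 was 0.29, and that of all rows was -0.01. Before adjustment, 5 of the 10 were higher and 1 lower in limma at the same threshold. Myd88 and Nfkbiz were added among the higher, and Tnfaip3 was the lower. The share of all rows past the threshold before adjustment was not counted. Unadjusted counts, here and below, therefore cannot be set against 4.71% and 4.48%. Without control 4 and mutant 1, the same 3 genes rose and 0 fell.

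**Figure D1:**
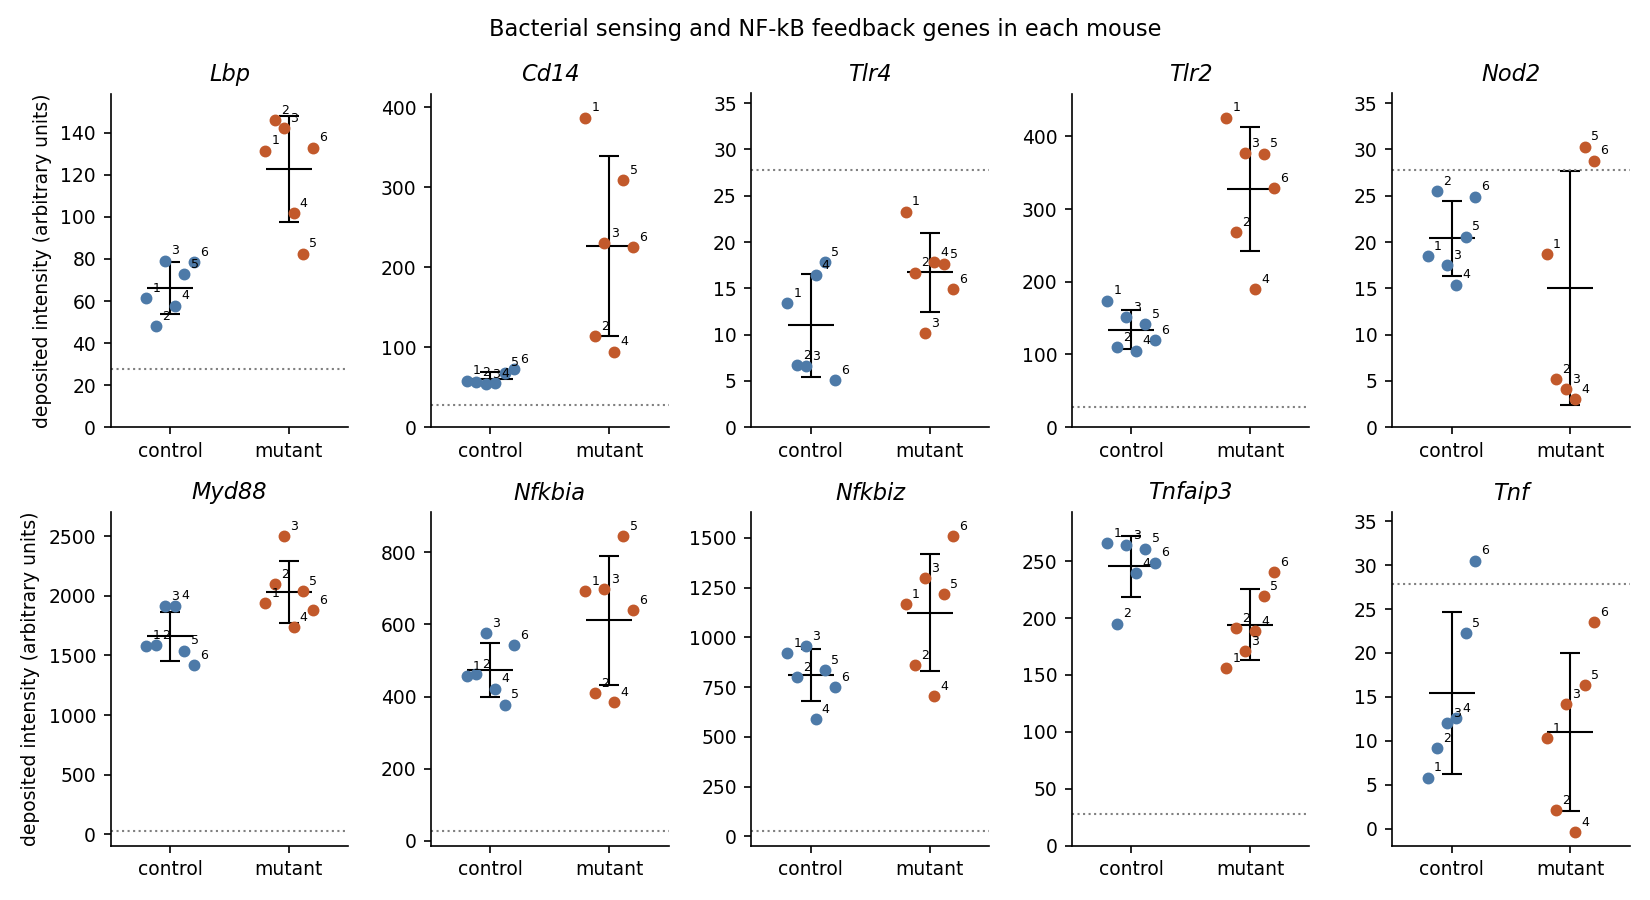
Deposited intensity (arbitrary units, linear axes) of each gene in 6 control and 6 mutant mice, numbered by replicate, with mean and SD as black bars and the noise limit of 27.8 as a dotted line. Cd14, Lbp and Tlr2 show no overlap between the groups, whereas Tlr4 lies below the limit in every mouse.

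Cd14, the lipopolysaccharide co-receptor, had the largest difference of the 10 on the log2 scale. Control values were tight, from 54.1 to 72.9 with a median of 57.3, and mutant values ran from 94.4 through a median of 228 to 387.0. All 6 mutants lay above every control, and the mutants themselves were widely spread, with mutant 4 lowest and mutant 1 highest. The means were 60.7 ± 7.88 and 226.5 ± 112, or 3.73-fold on the deposited scale, and the log2 difference was 1.08 (SE 0.20, adjusted p = 0.00417). Without the offset, with values floored at 1 before the log, the log2 difference was 1.74 (adjusted p = 0.0107). Without control 4 and mutant 1, the highest Cd14 sample, it was 0.93 (adjusted p = 0.0125).

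Lbp, the secreted lipopolysaccharide-binding protein, is best known as an acute-phase product of the liver and is also made by intestinal epithelium. It read 48.0 to 79.2 in controls, median 67.0, and 82.6 to 146.2 in mutants, median 132. The groups did not overlap, but the lowest mutant, mutant 5 at 82.6, was close to the highest control. The means were 66.2 ± 12.5 and 122.9 ± 25.2, which is 1.86-fold, with a log2 difference of 0.50 (SE 0.09, adjusted p = 0.00352). The difference was 0.89 with the floor at 1 in place of the offset (adjusted p = 0.0124). Hepatocyte markers were dim: of 10 hepatocyte markers 9 had both means within the noise limit, albumin among them. The other, Fgg, was near the limit, at 27.7 ± 13.2 in controls and 30.1 ± 6.35 in mutants. The summed intensity of the 10 was 30.3 to 68.1 in controls and 46.3 to 92.0 in mutants. Rows within the limit have no usable signal, and the source of the Lbp transcript was not tested. The hepatocyte marker that passed, Itih4, an acute-phase protein, rose from -2.35 ± 3.05 to 15.9 ± 14.0, with both means within the limit and 2 mutants above it.

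Tlr4 itself gave no usable signal, at 5.1 to 17.8 in controls and 10.2 to 23.3 in mutants, all below the noise limit (log2 difference 0.10, SE 0.06, adjusted p = 0.336). Its partner Ly96 was measured in every mouse and read 597 ± 160 in controls and 465 ± 99.0 in mutants (log2 difference -0.30, SE 0.15, adjusted p = 0.247). The rise of Cd14 and Lbp was thus seen without a passing change in the rest of the receptor complex, of which Tlr4 could not be measured.

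Tlr2, the lipoprotein receptor, had the smallest p of the 10. Controls ran from 105.3 to 174.2 with a median of 131, and mutants from 190.2 to 425.7 with a median of 352. Every mutant was above every control. The means were 134 ± 26.7 and 328 ± 85.8, a 2.45-fold difference, and the log2 difference was 0.94 (SE 0.14, adjusted p = 0.000902). It was 0.83 without control 4 and mutant 1 (adjusted p = 0.00472).

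Nod2, the intracellular peptidoglycan sensor, read 15.4 to 25.5 in controls and 3.0 to 30.3 in mutants, with 2 of 12 mice above the noise limit, mutants 5 and 6. The log2 difference was -0.10 (SE 0.08, adjusted p = 0.584). The direction is not settled, since it turned to 0.03 when values were floored at the noise limit (adjusted p = 0.768).

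Myd88, the adaptor shared by Tlr2 and Tlr4, was read well above the noise limit in every mouse. It was 1418 to 1918 in controls, median 1586, and 1735 to 2502 in mutants, median 1989. The groups overlapped, with 4 of 6 mutants above every control. The means were 1660.4 ± 208 and 2032 ± 263, 1.22-fold, and the difference did not pass (log2 difference 0.28, SE 0.09, adjusted p = 0.076). It passed without control 4 (adjusted p = 0.0458) or without mutant 4 (0.0444), the highest control and the lowest mutant.

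None of the 3 NF-kB regulators passed, and their differences did not share a sign. Nfkbia, which retains NF-kB in the cytoplasm, read 378.0 to 577 in controls, median 459, and 384 to 844 in mutants, median 665. Mutants 1, 3, 5 and 6 were above every control, while mutants 2 and 4, at 409.6 and 384, lay among the controls. The means were 473 ± 74.4 and 611 ± 180 (log2 difference 0.30, SE 0.16, adjusted p = 0.315).

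Nfkbiz, the nuclear partner, showed the same arrangement of mice. It ran from 590.2 to 954 in controls, median 819, and from 704 to 1508 in mutants, median 1190.5, with mutants 2 and 4 at 859 and 704 inside the control range and the other 4 above it. The means were 809 ± 131 and 1125 ± 294, 1.39-fold (log2 difference 0.42, SE 0.16, adjusted p = 0.121). Without mutant 4 the difference was 0.54 and passed (adjusted p = 0.0238).

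Tnfaip3, the A20 brake, had the opposite sign. It read 195.1 to 266.0 in controls, median 255, and 155.8 to 240.7 in mutants, median 189.8, with 4 of 6 mutants below every control. The means were 246 ± 26.8 and 194 ± 31.1, a ratio of 0.791 (log2 difference -0.26, SE 0.08, adjusted p = 0.0645). Leaving out control 2, the lowest control, gave -0.31 and passed (adjusted p = 0.0247), as did leaving out mutant 6, the highest mutant (-0.30, adjusted p = 0.0354).

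Tnf, the cytokine, read 5.8 to 30.5 in controls and -0.4 to 23.5 in mutants, with 1 of 12 mice above the noise limit (log2 difference -0.07, SE 0.08, adjusted p = 0.714). No statement on Tnf transcript in these tissues can be drawn from this row.

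**Figure D2:**
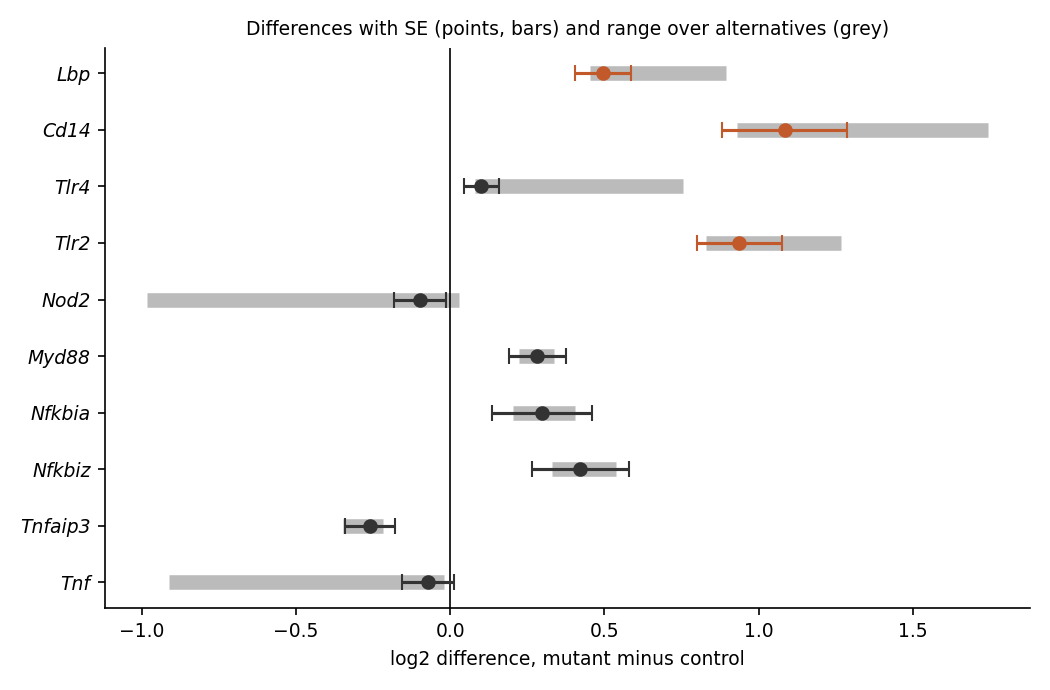
Log2 difference (mutant minus control) of each gene with its SE from limma, orange where the adjusted p is under 0.05, over a grey bar that spans the values under the alternative settings and with samples left out. The orange points, Lbp, Cd14 and Tlr2, stay right of 0 throughout, and the bars of Nod2 and Tnf, both within the noise limit, reach -0.98 and -0.91 with values floored at 1.

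The spread among mutants was shared by several of the genes. Mutant 4 had the lowest mutant value in 5 of the 7 genes read above the noise limit in every mouse. Mutants 4 and 2 were the 2 lowest mutants for Cd14 (94.4 and 113.6), Tlr2 (190.2 and 268), Nfkbia and Nfkbiz, whereas Lbp was highest in mutant 2 (146.2) and lowest in mutant 5. Myd88 was lowest in mutants 4 (1735) and 6 (1879), with mutant 2 at 2099. Tnfaip3 was lowest in mutant 1 (155.8), in which Cd14 and Tlr2 were highest. Among the 852 rows that rose, mutants 2 and 4 were likewise the lowest 2 mutants in 28.6%. The summed intensity of 11 neutrophil markers was also lowest, among mutants, in mutants 4 (3452) and 2 (5557). It was 9064 to 11904 for the other mutants, and controls ranged from 1223 to 1900.0. The largest part of this sum was S100a8 in mutants (mean 5650) and Mmp9 in controls (mean 1144). Between groups it therefore compares different genes.

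**Figure D3:**
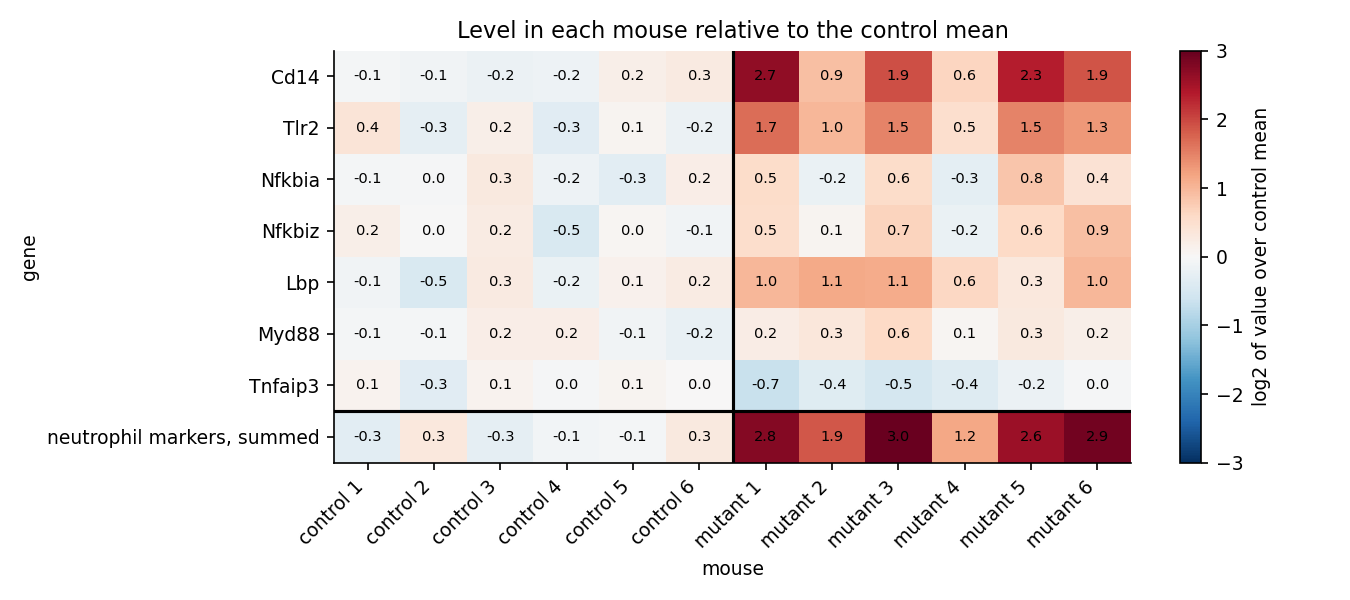
Log2 of each mouse's deposited intensity over the control mean, for the 7 genes read above the noise limit in every mouse and for the summed neutrophil markers, with control mice left and mutant mice right of the line. Cd14, Tlr2, Nfkbia, Nfkbiz and the neutrophil sum are lowest among mutants in mutants 2 and 4, and Lbp, Myd88 and Tnfaip3 are not. The largest part of the sum is S100a8 in mutants and Mmp9 in controls.

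Cell type markers give the setting of these values. Of the 11 neutrophil markers 5 rose and none fell, led by the calcium-binding proteins S100a8 (131 ± 41.8 to 5650.0 ± 2325) and S100a9 (31.4 ± 13.7 to 1428 ± 642) and by Ltf, lactoferrin (48.5 ± 5.65 to 162 ± 45.9). Before adjustment 6 were higher and 1 lower in limma. The lower one, the gelatinase Mmp9, read 1144 ± 264 in controls and 770.0 ± 243 in mutants, with 4 of 6 mutants below every control (log2 difference -0.57, adjusted p = 0.129). The neutrophil markers Cxcr2, Mpo, Mmp8 and Csf3r lay within the noise limit in every mouse. Of 12 macrophage markers 2 rose and 3 fell. Adgre1 (F4/80) fell from 186 ± 11.2 to 107 ± 15.8. Csf1r fell from 1192 ± 211 to 769 ± 195 and Mertk from 2610 ± 414 to 2043 ± 99.3. The mannose receptor Mrc1 rose from 467 ± 51.1 to 733 ± 166. Cd163 was called higher at 1.77 ± 2.57 and 28.2 ± 12.2, near the limit. The macrophage sum was 8325 to 10755 in controls and 7914 to 10537 in mutants, and Itgam was within the limit throughout. Neutrophils and macrophages are known to carry Cd14 and Tlr2, and the part of these cells in the rise was not tested.

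The other marker lists each had 0 or 1 member past the test. None of 7 T cell and 5 B cell markers passed in limma, with 0 also before adjustment, with Lck at 120 ± 39.0 and 115 ± 18.1 and Cd79b at 98.9 ± 65.6 and 71.3 ± 33.1. Among 10 epithelial markers 1 rose, the transcription factor Cdx1 (629 ± 89.1 to 828 ± 94.4), and the summed level was 48230 to 53964 in controls and 47748 to 56519 in mutants. Of 6 endothelial markers 1 fell, the angiopoietin receptor Tek (679 ± 75.1 to 519 ± 88.3). Of 8 stromal and muscle markers 1 rose, the smooth muscle protein Cnn1 (41.6 ± 8.33 to 68.6 ± 18.2). Of the 10 pancreatic acinar markers 0 passed before or after adjustment, Cela2a reaching 16840 in control 4 and 7044 in mutant 1.

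Around the 10 genes, 8 lists of the pathway held 107 measured genes, members included, of which 14 rose and 5 fell. These lists too were chosen with earlier results of these data known. Of all rows, 4.71% rose and 4.48% fell, so the share that fell was near that of all rows. Of rows with a group mean above the noise limit, 7.99% rose and 7.74% fell, and 29 of the 107 had both means within it. The effector list gave 7 of the 14 that rose. Without the members, 11 of 97 rose and 5 fell. Lists with an adjusted count of 0 in 1 direction were also counted before adjustment, with no share of all rows to set beside them. Of 10 Toll-like receptors 2 were higher and 0 lower, and of 15 peptidoglycan and NLR genes 2 were higher and 0 lower. The 5 subunits gave 1 higher and 0 lower, and the 22 effectors 9 higher and 0 lower. Among 16 adaptors and kinases 1 was higher and 3 lower, and among 15 TNF pathway genes 1 was higher and 1 lower. The median log2 difference of the 107 was 0.03. In the list of lipopolysaccharide handling, 2 of 9 rose, the members Cd14 and Lbp, and 1 fell. The one that fell was Aoah, an enzyme that inactivates lipopolysaccharide by removing its acyl chains. Aoah read 178 to 262 in controls and 91.5 to 153 in mutants, with no overlap between the groups (221 ± 34.0 to 122 ± 23.1, log2 difference -0.59, SE 0.09, adjusted p = 0.00129). Of 10 Toll-like receptors Tlr2 alone passed, and 4 had both means within the noise limit.

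Peptidoglycan sensors and NLR genes gave 2 of 15 higher and none lower. Pglyrp1, a peptidoglycan-binding antibacterial protein of neutrophil granules that is also made in intestine, read 1434 ± 476 in controls and 3442 ± 823 in mutants, a rise of 1.23 on the log2 scale (SE 0.20, adjusted p = 0.0014). Pycard, the inflammasome adaptor ASC, rose without overlap from 537 ± 66.6 to 770.1 ± 80.3, a log2 difference of 0.48 (SE 0.08, adjusted p = 0.0021). Of 16 adaptors and kinases none rose and 1 fell. It was Traf6, the ubiquitin ligase downstream of Myd88 (348 ± 16.9 to 304 ± 14.5, adjusted p = 0.0431). The Traf6 call was lost on removing any of controls 1, 2, 3 and 5 or mutants 1, 2, 4, 5 and 6 (adjusted p 0.052 to 0.0957), and in 5 other settings (0.0625 to 0.195).

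Of the 5 NF-kB subunits Relb, of the non-canonical pathway, rose from 134 ± 33.3 to 201 ± 34.7 (adjusted p = 0.0354), and its log2 difference was 0.41 (SE 0.11). Removing any of controls 1, 2, 4 and 5 or mutants 1, 3, 5 and 6 raised the adjusted p of Relb above the threshold (0.054 to 0.0781), as did removing control 4 and mutant 1 together (0.103) and using floors in place of the offset (0.0774 and 0.0894). Among 16 feedback genes 1 rose and 2 fell. Rnf11, a partner of A20, fell from 1461 ± 114 to 1074 ± 121 and Tollip, which restrains Toll and interleukin-1 receptor signalling, from 1787 ± 138 to 1390.3 ± 164, each without overlap (adjusted p = 0.0046 and 0.0113). Zc3h12a, the RNase regnase-1, rose from 34.4 ± 8.12 to 53.0 ± 8.40 (adjusted p = 0.0316), which was lost on removing any of controls 1 to 3 or mutants 1, 3, 5 and 6 (0.0501 to 0.0716) or control 4 with mutant 1 (0.0659). In the TNF pathway list none of 15 rose and 1 fell, the ubiquitin ligase Birc2 (744 ± 75.9 to 583 ± 29.2, no overlap, adjusted p = 0.00759).

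Of 22 effector genes that NF-kB commonly induces, 7 rose and none fell, 1 of the 7 (Ccl2) without usable signal. The shares over all rows were 4.71% and 4.48%. This list was chosen with earlier results of these data known, so its count is not independent of them. With floors in place of the offset, 4 rose. The difference from the other lists was not tested. The acute-phase protein Saa3 had a control mean of 30.5 ± 6.87 and a mutant mean of 2345 ± 1308 (adjusted p = 1.08e-06), a log2 difference of 4.38 with an SE of 0.30. The siderophore-binding protein Lcn2 rose from 81.6 ± 13.6 to 1341 ± 801, the complement component C3 from 1197 ± 278 to 3239 ± 906 and the neutrophil chemokine Cxcl1 from 49.1 ± 19.8 to 537 ± 345. These 4 had no overlap between the groups. The cytokine Il1b rose from 102.2 ± 62.7 to 523 ± 322 (adjusted p = 0.019) and the adhesion molecule Icam1 from 366 ± 58.9 to 529 ± 96.5 (adjusted p = 0.0216). Removing control 4 with mutant 1 put both above the threshold (adjusted p = 0.0748 and 0.0769), as did floors in place of the offset (0.0534 to 0.067). So did trend and robust variances for Il1b (0.0543) and removing mutant 3 or mutant 6 for Icam1 (0.0516 in each). The remaining one, Ccl2, named after its values were seen, had all 12 values within the noise limit, and its call was lost with floors (adjusted p = 0.0799 and 0.847) and without control 3 (0.0539). In the other 6 the lowest 2 mutants were mutants 2 and 4, Cxcl1 for example at 139.2 and 169 there and 561 to 1064 in the others.

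**Figure D4:**
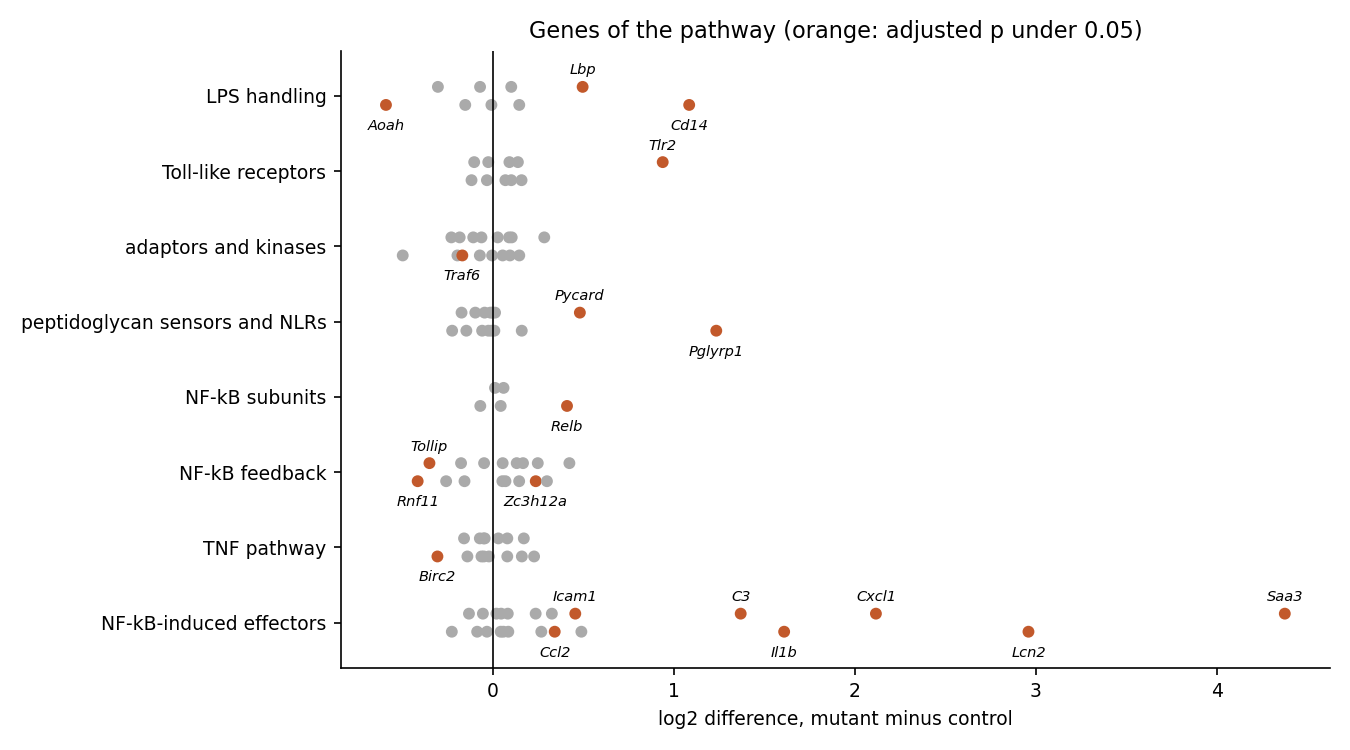
Log2 difference (mutant minus control) of every measured gene in the 8 pathway lists, 1 point a gene, orange and named where the adjusted p is under 0.05. Saa3 lies farthest right at 4.38, Pglyrp1 at 1.23 and Cd14 at 1.08 lie right of 1 in other lists, and Aoah at -0.59 and Rnf11 at -0.42 are among those that fell.

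The rows whose log2 levels tracked Tlr2 most closely over the 12 mice were Pde1a (Pearson r = 0.959), Capn13 (0.956) and the alpha-defensin Defa26 (row Defcr26, 0.956). For Lbp they were Akr1b7 (0.937), Ndrg1 (row NDRL, matched by synonym, 0.914) and Smoc1 (0.912). All 6 also rose in the mutants, so these coefficients, taken over both groups, contain the group difference. Akr1b7 rose from 163 ± 71.2 to 849 ± 280.3 and Ndrg1 from 693 ± 138 to 2361 ± 657.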

How the data were processed

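The authors deposited linear intensities, with 18090 gene symbols as rows and the 12 mice as columns. The tools named for them, per the submitters' processing notes, are GenomeStudio and Partek, without versions or roles. Of the deposited intensities 22.5% were below 0 and column medians were 41.8 to 43.4, as left by background subtraction and normalization between arrays. Probe positions, the array version and the rule that gave 1 value a gene were not stated. Another deposited table was not used here, since its 24 columns of signals and detection p-values match no sample label. Precision is set by the number of mice.

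Intensities were passed through normexp (offset 50), quantile normalized and logged (log2) in limma 3.58.1 under R 4.3.3. Mutant and control were compared by lmFit and eBayes with group as the only term, two-sided, with Benjamini-Hochberg adjustment over all rows and a threshold of 0.05. The script was tested on simulated data. Row names were matched to RefSeq symbols, 14092 directly and 3043 by a single synonym. Lists were counted without a set test, and markers were summed with negative values as 0. Named were all members, up to 6 genes past the threshold per pathway list by smallest p, up to 3 per marker list or otherwise the brightest, and for Tlr2 and Lbp, the members of smallest p, the 3 most correlated rows. In addition Ly96, Fabp1, Fabp2, Mmp9, Csf1r, Mertk, Fgg, Ccl2 and the markers at the noise limit were named after their values were seen. Members and lists were chosen with earlier results of these data known. Alternatives were other offsets and floors, no further quantile normalization, a filter on dim rows, array weights, trend and robust variances, a replicate block and samples left out.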

Additional observations from a re-analysis of the deposited data

Results flagged for a closer look

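Among the 20 groups of 6 values (10 genes in controls and in mutants), 1 held a sample set apart from the rest: control 2 had the lowest Tnfaip3 among controls, at 195.1 against 239.5 to 266.0 in the other 5. Its gap to the nearest control was 0.626 of the whole range, just past the limit of Dixon's test for 6 samples. Chance sets apart about 1 in 20 groups.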

How the results depend on the processing

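Cd14, Lbp and Tlr2 kept their direction and an adjusted p under 0.05 in all 21 alternatives, with adjusted p of 0.000727 to 0.0128, 0.00103 to 0.0194 and 7.28e-05 to 0.00684. Of 206 values of the 10 genes under alternatives, 199 kept their direction and side of the threshold, 6 passed it in addition (Myd88, Nfkbiz and Tnfaip3) and 1 reversed, Nod2 (NOD2) at 0.028 with a floor at the noise limit. With that floor Tlr4 gave no value, and the counts over all rows were 523 higher and 481 lower. With 1 mouse left out, 3 to 5 of the 10 genes rose (5 without mutant 4) and 0 to 1 fell (Tnfaip3, without control 2 or mutant 6). The corresponding counts over all rows were 655 to 875 higher and 592 to 844 lower. Same-numbered mice of the groups deviated together only in part (r of -0.10 to 0.23, 2 of 6 best matched by their own number), so the number was not taken to pair them. With the replicate number as a block, 4 of the 10 genes rose, the added one being Nfkbiz (adjusted p = 0.0324), and 857 rows were higher and 845 lower. Signal over background limits Tlr4, Nod2 and Tnf.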
